A study of Danio rerio with 42 samples.

Results

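The genes described here encode gel-forming mucins and proteins that goblet cells make alongside them. Of 8 gene symbols listed as members, 6 were found in both the larval table of 25935 genes and the liver tables of 25680 genes: the mucin genes muc5.3, muc5.1 and muc5.2, and agr2, clca1 and spdef (spelled SPDEF in the tables). The symbols muc2.1 and tff3 were not found and were not analysed here. The list was drawn up with results of these data in view. The gene muc5.3 was chosen by its difference with EtOH among larvae fed the HFHC diet, and clca1 was chosen by its difference with diet among EAE larvae, so those contrasts are given for all members as descriptions, with no test.

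Goblet cells are secretory cells of mucosal surfaces such as the intestinal lining. They store mucins, very large and heavily O-glycosylated proteins, in granules, and the released mucins swell into the mucus gel that covers the epithelium. AGR2 is a disulfide isomerase of the endoplasmic reticulum needed for mucin folding and goblet cell maturation, CLCA1 is a protein secreted into intestinal mucus in mammals, and SPDEF is a transcription factor that drives goblet cell differentiation in the mouse.

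All fish were AB strain zebrafish, and siblings from shared clutches were compared. The groups were EAE HFHC, control HFHC, EAE ND and control ND larvae, where EAE (embryonic alcohol exposure) was 1% ethanol (EtOH) from 12 hpf to 5 dpf and control was 0% EtOH. The larval ND was artemia and the HFHC (high-fat, high-cholesterol) diet was artemia with whole egg powder, given from 6 dpf until collection at 13 dpf. Each larval library was a pool of 15 whole larvae, with 3 pools per group. The 30 liver libraries were single adult livers, 5 in each of 6 groups, from fish that had been in 0%, 0.5% or 1% EtOH over the same embryonic window and fed HFHC diet (more feed, with egg powder) or ND for 8 weeks from 65 dpf. Labels give no tank or clutch for a library, so p-values measure the spread between these pools or livers.

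Counts per library ranged from 18582927 to 39115243 (median 20644885) in larvae and from 8131371 to 12963071 (median 11299844) in livers. Replicates differed by more than sampling noise, with a chi-square per degree of freedom of 4.50 to 8.34 between larval pools of a group and of 17.3 to 312 between livers of a group. The liver of 0% ND replicate 3 stood apart, with a summed level of 12 hepatocyte markers of 59973 CPM, against 111189 to 265649 CPM in the other 29 livers. The hepatocyte marker fabp10a was present in all 30 livers, at 3928 to 31637 CPM. CPM here are library-scaled counts (TMM method), and levels of different genes are compared only as TPM, which correct for gene length and were deposited for larvae.

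On GRCz10, muc5.1 (ENSDARG00000070331, chromosome 25, 8279639 to 8323098) and muc5.2 (ENSDARG00000058556, chromosome 25, 8330824 to 8368332) were neighbours, 7.726 kb apart with 0 annotated genes between them. The gel-forming mucin gene muc2.2 ended 4.927 kb before muc5.1. On chromosome 7 lay muc5.3 (ENSDARG00000099470, 72041890 to 72088651), with muc5f 7.983 kb further on. The other members were agr2 (ENSDARG00000070480, chromosome 19, 30814138 to 30816783), clca1 (ENSDARG00000016290, chromosome 15, 14173695 to 14184474) and spdef (ENSDARG00000029930, chromosome 6, 54274627 to 54301159). Mucin genes share repeats and domains, so reads may be divided unevenly between them.

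All 6 members were detected in all 12 larval pools. By TPM, agr2 was highest, at 131 to 176 TPM, with muc5.1 next at 39.9 to 68.0 TPM and clca1 at 26.6 to 63.6 TPM. The ranges of muc5.1 and clca1 overlapped, and muc5.1 was the higher of the pair in both control groups and on ND, while in EAE HFHC pools muc5.1 had 56.4 to 67.0 TPM and clca1 59.3 to 63.6 TPM. Below these stood muc5.2 at 2.72 to 8.93 TPM. The lowest were spdef, at 0.920 to 2.58 TPM, and muc5.3, at 0.225 to 1.93 TPM, whose ranges overlapped. Of the summed TPM of the 3 member mucin genes, muc5.1 made up 87.3% to 92.3% in every pool, so muc5.2 and muc5.3 moved on a small base.

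The mucin genes differed in how they varied across the groups. In EAE HFHC larvae muc5.3 had 11.2, 15.9 and 16.9 CPM, against 4.91, 1.97 and 4.51 CPM in control HFHC larvae. EAE ND larvae had 12.9, 10.9 and 12.5 CPM of muc5.3, against 9.97, 17.2 and 16.4 CPM in control ND larvae. The 3 control HFHC pools were thus the lowest of the 12, and the other 9 pools, from 3 groups, shared a range of 9.97 to 17.2 CPM. In bulk samples such as these, fewer cells of a type and less RNA per cell cannot be told apart.

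Both genes of the neighbour pair on chromosome 25 were higher on HFHC diet in control larvae, but in EAE larvae only muc5.1 was. In EAE HFHC larvae muc5.2 had 39.5, 36.9 and 29.9 CPM, against 81.8, 69.2 and 46.7 CPM in control HFHC larvae. EAE ND larvae had 40.8, 34.5 and 39.2 CPM of muc5.2, against 37.2, 26.3 and 35.3 CPM in control ND larvae. Here the control HFHC pools were the 3 highest of the 12, although replicate 3 of that group, at 46.7 CPM, was closer to the remaining pools than to the other members of its own group.

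The most abundant of the member mucin genes, muc5.1, instead followed diet in both EtOH groups. It had 532, 519 and 473 CPM in EAE HFHC larvae, against 335, 377 and 363 CPM in EAE ND larvae. Control HFHC larvae had 522, 516 and 538 CPM, against 399.6, 390.3 and 441 CPM in control ND larvae. All 6 HFHC pools were above all 6 ND pools, and EAE ND pools were the lowest. How many of all genes split by diet in this way was not counted.

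The same order of diets held for clca1, with a wider gap. EAE HFHC larvae had 105.7, 100.9 and 104 CPM, against 51.2, 52.7 and 51.0 CPM in EAE ND larvae. Control HFHC larvae had 80.4, 87.3 and 93.3 CPM, against 49.2, 46.8 and 45.1 CPM in control ND larvae. The 4 groups did not overlap at all for clca1, with EAE HFHC pools highest and control ND pools lowest. Over all genes, neither this nor the standing apart of control HFHC pools for muc5.3 and muc5.2 was counted. Non-overlap of 2 groups held for 14.2% of all genes with EtOH on HFHC diet and for 31.3% with diet in EAE larvae.

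For agr2, EAE HFHC larvae had 166, 146 and 169 CPM, against 158, 162 and 157 CPM in control HFHC larvae. EAE ND larvae had 179, 187 and 179.9 CPM, against 169.9, 207 and 201 CPM in control ND larvae. The range over all pools was narrow, and every ND pool was above the highest HFHC pool. The diets were closest at 169.94 CPM in a control ND pool and 169.42 CPM in an EAE HFHC pool, and such a split was not counted over all genes. The transcription factor gene spdef rested on 10 to 31 counts per pool, and its levels of 0.438 to 1.27 CPM overlapped between all groups.

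**Figure D1:**
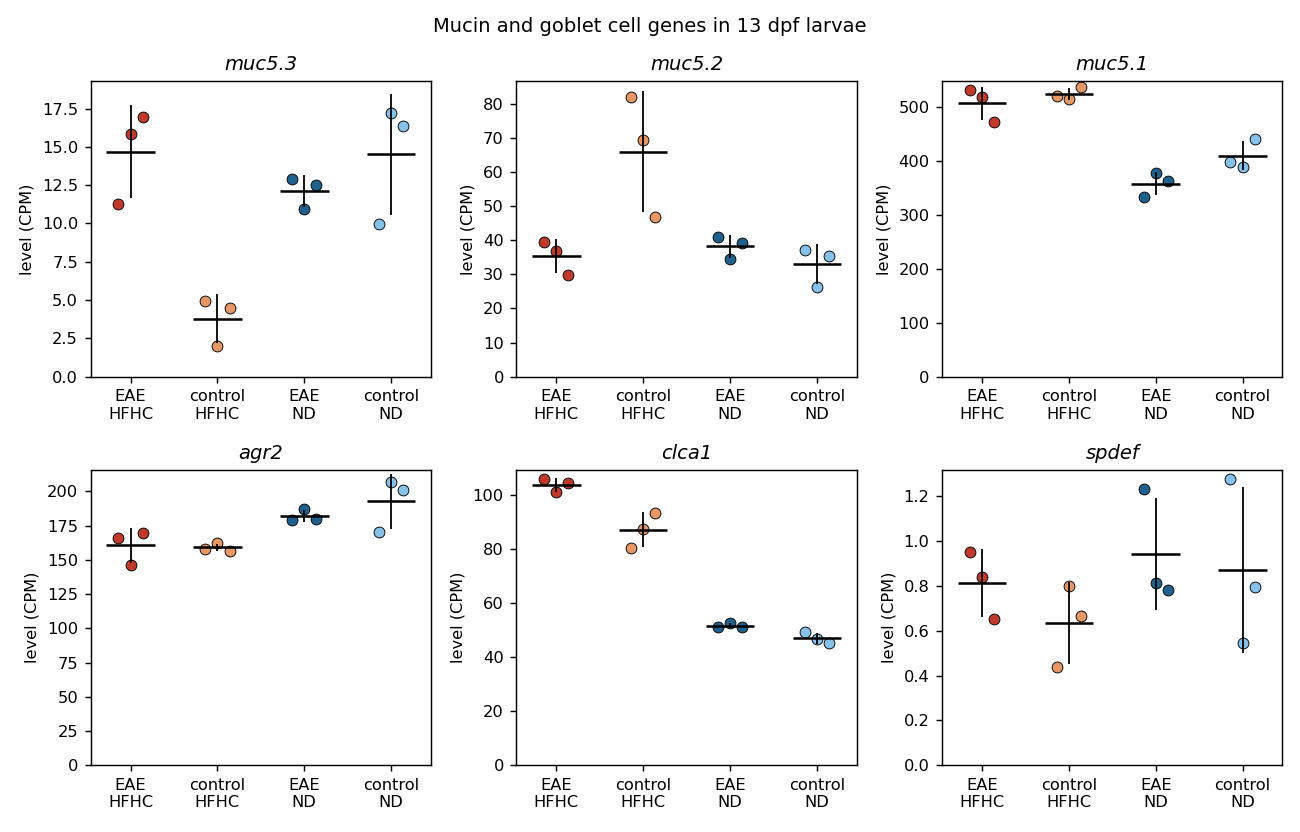
Level in CPM of the 6 mucin and goblet cell genes in 13 dpf larvae, with 1 point per pool of 15 larvae, a horizontal bar at the mean and a vertical bar of 1 SD (n = 3 pools per group). Control HFHC pools are lowest for muc5.3 (1.97 to 4.91 CPM) and highest for muc5.2 (46.7 to 81.8 CPM), while muc5.1 and clca1 are higher in the HFHC pools of both EtOH groups.

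Diet in control larvae and EtOH on ND each tested 5 members. With diet in control larvae, clca1, muc5.2 and muc5.1 rose on HFHC diet and agr2 fell. With clca1 averaging 87.0 ± 6.46 CPM in control HFHC larvae and 47.0 ± 2.05 CPM in control ND larvae (SD, n = 3 each), its log2 fold change was 0.89 (SE 0.0612, adjusted p = 1.73e-07 in the quasi-likelihood F test of edgeR, adjusted by Benjamini-Hochberg over all genes). The rise of muc5.2 was of like size, at 65.9 ± 17.8 CPM in control HFHC and 32.9 ± 5.84 CPM in control ND larvae, a log2 fold change of 0.99 (SE 0.163, edgeR adjusted p = 7.78e-04). That of muc5.1 was smaller, at 525 ± 11.6 CPM in control HFHC and 410.4 ± 27.2 CPM in control ND larvae, a log2 fold change of 0.36 (SE 0.0653, edgeR adjusted p = 0.00179).

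The fall of agr2 was the smallest of the 4 changes. It averaged 159 ± 2.82 CPM in control HFHC and 193 ± 19.8 CPM in control ND larvae, a log2 fold change of -0.28 (SE 0.0728, edgeR adjusted p = 0.0169). The call was lost on leaving out control ND replicate 2 or 3 or control HFHC replicate 1 or 3, with adjusted p-values of 0.0550 to 0.0697. For spdef the log2 fold change was -0.48 (SE 0.336, edgeR adjusted p = 0.348).

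Of all 19657 genes tested, 17.1% were called for diet in control larvae, 9.58% higher and 7.55% lower on HFHC diet. The median log2 fold change of the 6 members was 0.04, against 0.01 over all genes, since members moved in both directions. The low values of muc5.3 in control HFHC larvae, 3.80 ± 1.59 CPM against 14.5 ± 3.96 CPM in control ND larvae (SD, n = 3 each), gave a log2 fold change of -1.91 (SE 0.247), or -0.87 with limma on log2(TPM + 1). This value has no test, because the control HFHC pools are also those that set muc5.3 apart on HFHC diet.

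EtOH exposure on ND moved no member past the threshold in edgeR, with 0 of 5 members called, also with DESeq2, against 1.31% of all genes called. At an unadjusted p under 0.05 there was 1 member of 5, muc5.1, which had a log2 fold change of -0.20 (SE 0.0653, edgeR adjusted p = 0.141). Over all genes, 15.6% had an unadjusted p under 0.05 in edgeR for EtOH on ND and 8.31% for EtOH on HFHC diet. EAE ND larvae averaged 358 ± 21.9 CPM of muc5.1 and control ND larvae 410.4 ± 27.2 CPM (SD, n = 3 each). The groups did not overlap, a trait that was not counted over all genes for this comparison. The log2 fold changes of the others were 0.20 (SE 0.167) for muc5.2, -0.27 (SE 0.214) for muc5.3, -0.08 (SE 0.0727) for agr2 and 0.10 (SE 0.314) for spdef. For clca1, described with no test because its EAE ND pools also stood in the contrast that chose it, the log2 fold change was 0.14 (SE 0.0622).

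On HFHC diet the largest difference with EtOH was that of muc5.3, which set it on the list. It averaged 14.7 ± 3.03 CPM in EAE HFHC and 3.80 ± 1.59 CPM in control HFHC larvae (SD, n = 3 each), a log2 fold change of 1.92 (SE 0.250). In the other direction, muc5.2 averaged 35.4 ± 4.98 CPM in EAE HFHC and 65.9 ± 17.8 CPM in control HFHC larvae, a log2 fold change of -0.89 (SE 0.164). For clca1 the log2 fold change was 0.25 (SE 0.0597), at 104 ± 2.50 CPM in EAE HFHC and 87.0 ± 6.46 CPM in control HFHC larvae. The log2 fold changes were -0.05 (SE 0.0652) for muc5.1, 0.01 (SE 0.0731) for agr2 and 0.38 (SE 0.353) for spdef. The groups did not overlap for 3 of 6 members, muc5.3 and clca1 higher and muc5.2 lower in EAE larvae, and 14.2% of all genes had groups that did not overlap. The share of all genes called was 0.234%.

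In EAE larvae, diet went with the difference of clca1 that set it on the list. It averaged 104 ± 2.50 CPM in EAE HFHC and 51.6 ± 0.900 CPM in EAE ND larvae (SD, n = 3 each), a log2 fold change of 1.01 (SE 0.0613). For muc5.1 the log2 fold change was 0.50 (SE 0.0655), at 508 ± 30.7 CPM in EAE HFHC and 358 ± 21.9 CPM in EAE ND larvae. For agr2 it was -0.18 (SE 0.0730), at 160.5 ± 12.6 CPM in EAE HFHC and 182 ± 4.36 CPM in EAE ND larvae. The values for muc5.2 (-0.10, SE 0.168), muc5.3 (0.28, SE 0.217) and spdef (-0.20, SE 0.330) were small beside their SE and their groups overlapped. Groups did not overlap for 3 of 6 members, clca1 and muc5.1 higher and agr2 lower on HFHC diet, where 31.3% of all genes had such groups and 12.3% were called.

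As a description of the design's interaction, the log2 difference between the EtOH effect on HFHC diet and that on ND was 2.19 (SE 0.330) for muc5.3, or 1.03 with limma on log2(TPM + 1), and -1.10 (SE 0.234) for muc5.2. It was 0.15 (SE 0.0923) for muc5.1, 0.12 (SE 0.0862) for clca1, 0.10 (SE 0.103) for agr2 and 0.27 (SE 0.472) for spdef. These values hold both contrasts that chose members and were not tested.

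**Figure D2:**
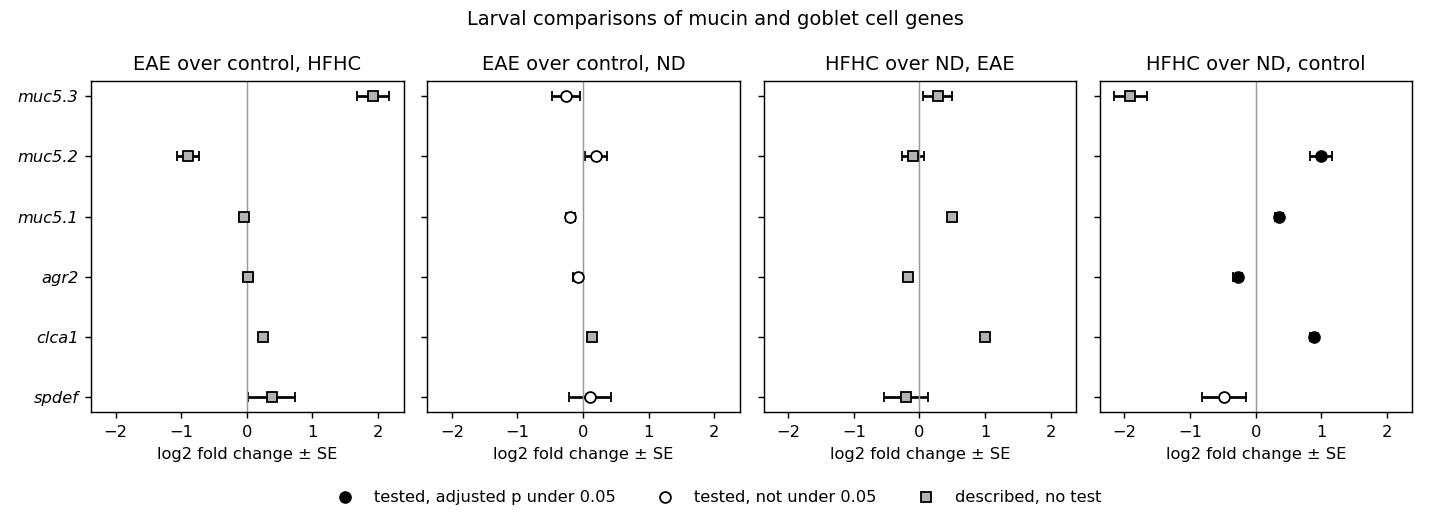
Log2 fold change (x axis, with bars of 1 SE) of the 6 genes in the 4 larval comparisons, fitted on all 12 pools; filled circles were tested with an adjusted p under 0.05, open circles were tested and missed it, and grey squares are described with no test. Diet in control larvae has 4 filled circles, clca1, muc5.2 and muc5.1 to the right of 0 and agr2 to the left, and muc5.3 stands near 2 for EtOH on HFHC diet and near -2 for diet in control larvae.

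The opposite values of muc5.2 and muc5.3 were set side by side as the ratio of their TPM within a pool, a measure chosen after their values were seen. EAE HFHC pools had ratios of 3.23, 2.14 and 1.62, against 15.3, 32.3 and 9.51 in control HFHC pools. EAE ND pools had 2.91, 2.90 and 2.88, against 3.44, 1.41 and 1.98 in control ND pools. Only in control HFHC pools did the ratio pass 3.44. Over the 12 pools log2 CPM of the pair had a Pearson r of -0.85 and a Spearman rho of -0.79, with r = -0.73 over 10 pools after leaving out the 2 farthest from the median; the points share library and depth, and the 3 control HFHC pools lie apart from the rest. The summed TPM of the 3 mucin genes was 61.4 to 72.6 in EAE HFHC, 69.9 to 75.2 in control HFHC, 45.6 to 52.3 in EAE ND and 51.2 to 60.4 in control ND pools, an order set by muc5.1.

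**Figure D3:**
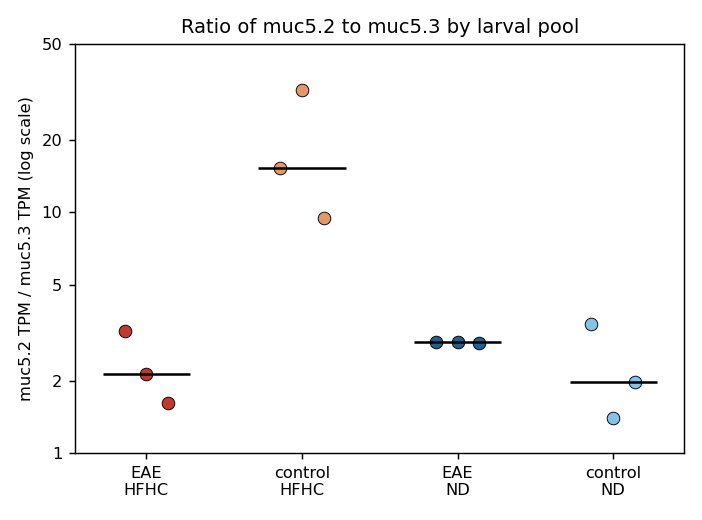
Ratio of muc5.2 TPM to muc5.3 TPM (log axis) with 1 point per larval pool and a bar at the group median. The 3 control HFHC pools lie between 9.51 and 32.3, and the 9 pools of the other groups between 1.41 and 3.44.

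The larval table listed 4 further mucin genes, of which muc13a and muc13b belong to the membrane-bound mucins of epithelial surfaces. By TPM muc13b was the most abundant of them, averaging 108 ± 3.91 TPM in EAE HFHC, 95.5 ± 3.79 TPM in control HFHC, 68.7 ± 8.59 TPM in EAE ND and 70.7 ± 13.1 TPM in control ND larvae (SD, n = 3 each). These means were above those of muc5.1, at 63.1, 65.3, 44.4 and 49.9 TPM in the same order. The gene muc13b rose on HFHC diet in control larvae (log2 fold change 0.40, edgeR adjusted p = 0.0130) and in EAE larvae (0.65, edgeR adjusted p = 5.34e-04). On HFHC diet muc13a rose in control larvae (log2 fold change 0.43, edgeR adjusted p = 0.0191), a call lost on leaving out control ND replicate 3 or control HFHC replicate 1 or 3 (adjusted p 0.0605 to 0.110) and with limma on log2(TPM + 1) or log2(TPM + 0.1) (0.0678 and 0.0792). Its log2 fold change in EAE larvae was 0.31 (edgeR adjusted p = 0.111). Over the 4 genes the median log2 fold change with diet was 0.42 in control larvae.

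The gene next to muc5.3, muc5f, was low in the same pools. It had 1.25, 1.30 and 1.15 CPM in EAE HFHC larvae, against 0.833, 0.533 and 0.841 CPM in control HFHC larvae. EAE ND larvae had 1.33, 1.08 and 1.04 CPM, against 1.55, 1.91 and 1.97 CPM in control ND larvae. In control larvae it fell with HFHC feeding, by a log2 fold change of -1.28 (SE 0.221, edgeR adjusted p = 0.00111). This call rests on the control HFHC pools that set muc5.3 apart and is no independent support for the values of muc5.3. The levels of muc5f, 0.533 to 1.97 CPM over the 12 pools, were low. The log2 fold change with EtOH was 0.72 (edgeR adjusted p = 0.350) on HFHC diet and -0.66 (edgeR adjusted p = 0.114) on ND. Across the 12 pools its log2 CPM had an r of 0.86 and a rho of 0.72 with muc5.3 (r = 0.66 over 10 pools). Whether reads are shared between the neighbouring genes was not tested. The gene muc2.2 was near the limit of detection, at mean levels of 0.0754 to 0.385 TPM in the 4 groups, and passed the test in no larval comparison. With EtOH its log2 fold change was 2.26 on ND (SE 0.677, edgeR adjusted p = 0.101) and 1.25 on HFHC diet (SE 0.667, edgeR adjusted p = 0.660). Its groups overlapped on both diets, with 0.563, 1.63 and 4.27 CPM in EAE ND larvae. For EtOH, 0 of these 4 mucin genes were called on either diet in edgeR and DESeq2, with 1 on HFHC diet and 2 on ND at an unadjusted p under 0.05.

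Among 6 secreted partners of mucins (agr1, the clca1 relatives clca5.1 and clca5.2, and the intelectin genes itln1, itln2 and itln3, whose products bind microbial sugars in mammals), more were called for diet than for EtOH. In EAE larvae 4 rose on HFHC diet and 1 fell, with a median log2 fold change of 0.89 against -0.0012 over all genes, and in control larvae 2 rose, with a median of 0.34 against 0.01. The calls were 83.3% of the list in EAE and 33.3% in control larvae, beside 12.3% and 17.1% of all genes. The gene itln2 rose in both, with a log2 fold change of 1.34 in EAE larvae (edgeR adjusted p = 2.55e-04), at 18.4 ± 3.32 CPM in EAE HFHC and 7.28 ± 0.964 CPM in EAE ND larvae, and of 1.47 in control larvae (edgeR adjusted p = 6.22e-05). In EAE larvae itln1 rose by a log2 fold change of 1.32 (edgeR adjusted p = 1.09e-04), and in control larvae its value was 0.31 (edgeR adjusted p = 0.184); on ND it had 6.35, 5.96 and 4.21 CPM in EAE larvae, against 8.60, 11.7 and 7.52 CPM in control larvae (log2 fold change -0.72, edgeR adjusted p = 0.0520).

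The clca genes near clca1 had the same direction with diet. On HFHC diet clca5.1, 33.7 kb from clca1 with 1 gene between them, rose in control larvae (log2 fold change 1.01, edgeR adjusted p = 0.00344) and in EAE larvae (0.77, edgeR adjusted p = 0.0208). The call in EAE larvae was lost on leaving out EAE ND replicate 1 or 3 or EAE HFHC replicate 2 or 3 (adjusted p 0.0734 to 0.0886). In EAE larvae clca5.2 rose (log2 fold change 1.00, edgeR adjusted p = 4.46e-04), with 0.37 in control larvae (edgeR adjusted p = 0.0862). Both were far below clca1, at mean levels under 5 TPM in every group. The agr2 relative agr1 fell on HFHC diet in EAE larvae (log2 fold change -0.29, edgeR adjusted p = 0.0343), a call lost without any EAE ND pool or without EAE HFHC replicate 1 or 2 (adjusted p 0.0571 to 0.119). EtOH exposure gave 0 calls of 6 on either diet in edgeR, with median log2 fold changes of 0.0040 on HFHC diet and 0.15 on ND. At an unadjusted p under 0.05 there were 0 on HFHC diet and 3 on ND, and DESeq2 called 0 and 1.

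Of 25 enzymes of mucin-type O-glycosylation, which attach and extend the sugar chains of mucins, 24 were tested. With diet in control larvae 2 rose and 0 fell (median log2 fold change 0.10), which is 8.33% of them against 17.1% of all genes, and in EAE larvae 3 rose and 0 fell (median 0.10), which is 12.5% against 12.3% of all genes. The N-acetylgalactosaminyltransferase gene galnt6 rose in both, with a log2 fold change of 0.29 in EAE larvae (edgeR adjusted p = 0.0136) and 0.39 in control larvae (edgeR adjusted p = 0.00152); its call in EAE larvae was lost without EAE ND replicate 2 (adjusted p = 0.0873). The calls of galnt7 in control larvae (0.23, edgeR adjusted p = 0.0253) and of galnt12 and gcnt4a in EAE larvae (0.39 and 0.25, edgeR adjusted p = 0.0240 and 0.0281) were each lost without any of 3 to 5 single pools. The call of galnt7 was also lost with only the 2 groups compared in the fit (adjusted p = 0.0613), and those of galnt12 and gcnt4a with DESeq2 (0.0518 and 0.0632). EtOH gave 0 calls of 24 on either diet in edgeR and DESeq2, with 1 gene on HFHC diet and 3 on ND at an unadjusted p under 0.05.

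Transcription factors of secretory and intestinal lineages split in direction. On HFHC diet klf5l, a Krüppel-like factor gene, rose in control larvae (51.7 ± 2.67 CPM in control HFHC and 30.3 ± 1.83 CPM in control ND larvae, SD, n = 3 each; log2 fold change 0.76, edgeR adjusted p = 1.79e-06) and in EAE larvae (0.45, edgeR adjusted p = 3.63e-04). On HFHC diet klf4, which in the mouse is needed for goblet cell maturation in the colon, fell in control larvae (log2 fold change -0.44, edgeR adjusted p = 0.0233, lost without control ND replicate 3 or control HFHC replicate 1 and with both limma fits on TPM, at 0.0901 and 0.0913) and in EAE larvae (-0.56, edgeR adjusted p = 0.00812). In EAE larvae foxa3, a forkhead factor gene of gut and liver, rose on HFHC diet (log2 fold change 0.44, edgeR adjusted p = 0.00348). In control larvae sox9b fell (log2 fold change -0.29, edgeR adjusted p = 0.0457), a call lost without any of 5 single pools and with both limma fits (0.161 and 0.160). In all, of 12 factors tested, 2 rose and 2 fell with diet in control larvae, and 2 rose and 1 fell in EAE larvae, with medians of 0.05 and 0.09. All genes were called at 17.1% in control and 12.3% in EAE larvae, beside 4 and 3 of these 12.

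A single factor gene was called for EtOH in larvae fed the HFHC diet. In that comparison creb3l1, which encodes a membrane-bound factor of secretory cells, had 24.1 ± 0.676 CPM in EAE HFHC and 30.8 ± 2.26 CPM in control HFHC larvae (log2 fold change -0.35, edgeR adjusted p = 0.0476). It rose with diet in control larvae (0.66, edgeR adjusted p = 1.05e-05), and in these comparisons it had the same directions as muc5.2. The EtOH call was lost without any of 5 single pools (adjusted p 0.139 to 0.191), with limma on log2(TPM + 1) or log2(TPM + 0.1) (0.116 and 0.123) and with only the 2 groups compared in the fit (0.0566). Both comparisons share the control HFHC pools.

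Markers of tissues that could carry mucin expression were followed beside the members in these whole larvae. The summed level of 10 enterocyte markers was 3267 to 3679 CPM in EAE HFHC, 3158 to 3468 CPM in control HFHC, 3061 to 3566 CPM in EAE ND and 2752 to 3447 CPM in control ND pools, overlapping between all groups. The sum of 9 skin keratinocyte markers overlapped likewise, at 15259 to 17253 CPM in EAE HFHC, 14588 to 18921 CPM in control HFHC, 14221 to 16147 CPM in EAE ND and 14628 to 15398 CPM in control ND pools.

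Single enterocyte genes did move with diet beside clca1 and muc5.1. Of the 10 markers tested 3 rose and 0 fell with diet in EAE larvae (2 called by DESeq2) and 3 rose and 1 fell in control larvae, with median log2 fold changes of -0.02 and -0.03. The calls were 30% and 40% of the list, beside 12.3% and 17.1% of all genes. The nutrient transporter genes slc5a1 and slc15a1b and the aminopeptidase gene anpepb rose on HFHC diet in EAE larvae (log2 fold changes 0.44, 0.40 and 0.43) and in control larvae (0.50, 0.75 and 0.54), whereas the intestinal factor gene cdx1b fell in control larvae (-0.46, edgeR adjusted p = 0.0316). The microvillus gene vil1 had values of -0.05 in EAE and -0.07 in control larvae, neither of which passed the test. With EtOH, slc5a1 alone of the list was called in edgeR, on HFHC diet (0.34, edgeR adjusted p = 0.0358) and on ND (0.40, edgeR adjusted p = 0.0111). DESeq2 called 1 marker of the list on HFHC diet and 2 on ND. Of all genes edgeR called 0.234% on HFHC diet and 1.31% on ND. Whether the calls of slc5a1 held with single pools left out was not examined. Of the keratinocyte markers 1 rose and 1 fell with diet in EAE larvae and 2 rose in control larvae, and 0 of 9 were called for EtOH in edgeR on either diet (2 on each at an unadjusted p under 0.05, and 0 on HFHC diet and 1 on ND with DESeq2). Their diet calls were 22.2% of the list in EAE and in control larvae, beside 12.3% and 17.1% of all genes. Of 13 exocrine pancreas markers 0 were called for EtOH or diet in edgeR or DESeq2, with at most 1 at an unadjusted p under 0.05. The part of these genes in the members' values was not tested.

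By a rule that took genes with a mean of at least 5 CPM, those whose log2 CPM over the 12 pools was most like muc5.3 were dusp23a (r = 0.93), gstp2 (r = 0.91), stox1 (r = 0.89), pik3ap1 (r = 0.87) and pcdh20 (r = 0.87). Their Spearman rho with muc5.3 was 0.93, 0.96, 0.72, 0.76 and, for pcdh20, only 0.37. The glutathione transferase gene gstp2 averaged 33.2 CPM in EAE HFHC, 17.9 CPM in control HFHC, 28.8 CPM in EAE ND and 38.3 CPM in control ND larvae, and so shared the low control HFHC level. Most like clca1 were uraha (r = 0.98), chmp1b (0.98), dock8 (0.98), abcb11b (0.97) and ifit14 (0.97), of which abcb11b encodes a bile salt export pump. The level of ifit14 was 11.3 CPM in EAE HFHC and 8.76 CPM in control HFHC, against 2.71 CPM in EAE ND and 2.46 CPM in control ND larvae. Most like agr2 were clptm1l (r = 0.94), serp1 (0.93), ecd (0.92), lman1 (0.92) and mars2 (0.92), where serp1 and lman1 encode proteins of the endoplasmic reticulum and its export route. These correlations describe 12 pools that share 4 groups.

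In adult livers the members were mostly near the limit of detection, with large differences between single livers. In all 30 livers muc5.3 had at most 5 counts, with 0 in 20, and spdef at most 11, with 0 in 23. Above 5 counts muc5.1 was found in 5 livers and muc5.2 in 4. Only agr2 and clca1 reached levels that could be tested in any comparison.

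For clca1 the livers of a group differed widely. On HFHC diet, 0% EtOH livers had 0, 1.92, 0.269, 9.48 and 3.03 CPM, 0.5% livers 0, 371, 41.4, 1.75 and 0.0986 CPM and 1% livers 0.328, 0.337, 2.25, 0.366 and 0.394 CPM. On ND, 0% EtOH livers had 240, 399, 1481, 0.439 and 0.958 CPM, 0.5% livers 0.182, 0, 0.106, 0.483 and 0.0756 CPM and 1% livers 0.251, 11.4, 433, 139 and 581 CPM. Of the 30 livers 7 were above 100 CPM, 3 of 0% ND, 3 of 1% ND and 1 of 0.5% HFHC, while all 5 livers of 0.5% ND were below 0.5 CPM.

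The 5 livers with the highest clca1 were also the 5 with the highest agr2. On HFHC diet agr2 had 0.120, 0.786, 0, 0.632 and 3.40 CPM in 0% EtOH livers, 0, 17.7, 1.25, 0.160 and 0.197 CPM in 0.5% livers and 0.574, 0.758, 0.781, 0.915 and 0 CPM in 1% livers. On ND it had 5.08, 17.6, 54.3, 0.549 and 3.51 CPM in 0% EtOH livers, 0.273, 1.71, 0, 0 and 0.303 CPM in 0.5% livers and 1.25, 9.56, 11.1, 3.17 and 12.9 CPM in 1% livers. The liver of 0% ND replicate 3 was highest for both genes.

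The mucin genes were found in other livers. The highest muc5.1 levels were 5.08 CPM (52 counts) in 1% HFHC replicate 3, 4.87 CPM (53 counts) in 0% HFHC replicate 6 and 1.76 CPM (21 counts) in 1% ND replicate 1. Those of muc5.2 were 22.6 CPM (246 counts) in 0% HFHC replicate 6, 4.78 CPM (49 counts) in 1% HFHC replicate 3 and 0.753 CPM (9 counts) in 1% ND replicate 1, the same 3 livers. In 0% ND livers clca1 had 240 to 1481 CPM in replicates 1 to 3, but 0.439 and 0.958 CPM in replicates 4 and 5. In all 5 of these livers muc5.1 had 0 counts. These counts are too few for a fold change between groups.

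**Figure D4:**
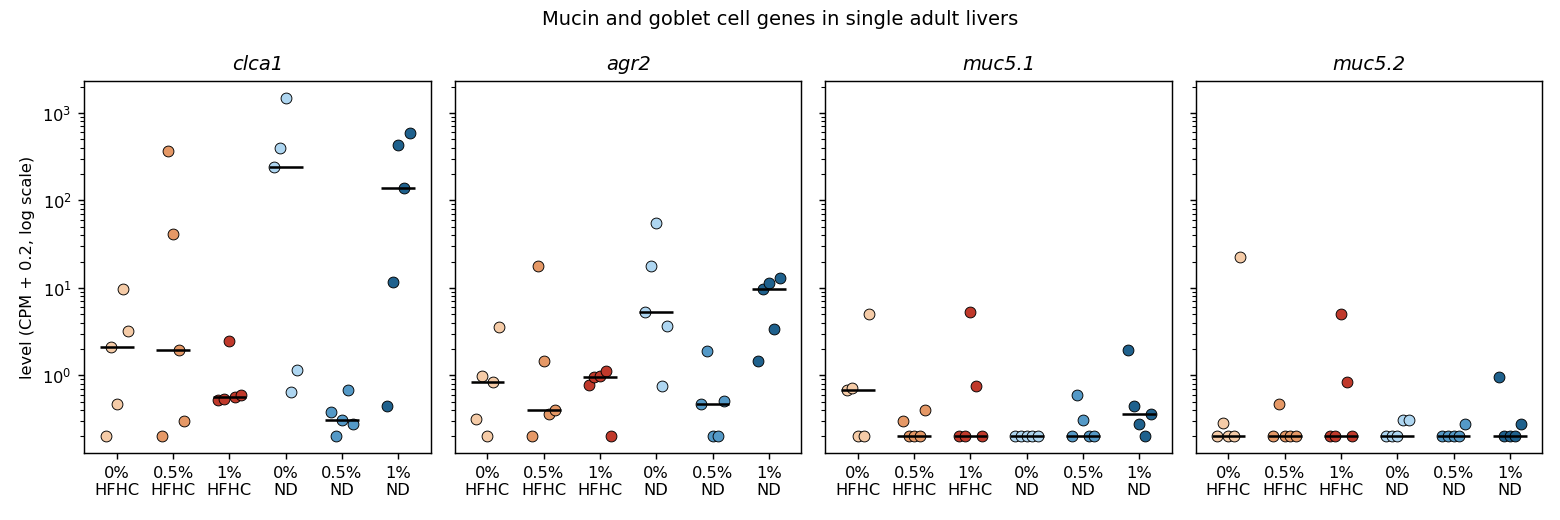
Level of clca1, agr2, muc5.1 and muc5.2 in single adult livers (CPM + 0.2, log axis) by diet and EtOH dose, with 1 point per liver and a bar at the group median (5 livers per group). High clca1 values, above 100 CPM, lie in 3 livers of 0% ND, 3 of 1% ND and 1 of 0.5% HFHC, and the few livers with muc5.1 and muc5.2 above 1 CPM are others.

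Diet at 1% EtOH gave the only member calls of edgeR in livers when each pair of groups was fitted by itself. HFHC livers averaged 0.734 CPM of clca1 and ND livers 233 CPM (n = 5 each), a log2 fold change of -8.34 (SE 1.66, edgeR adjusted p = 0.0464), and the groups overlapped because 1% ND replicate 1 had 0.251 CPM. For agr2 they averaged 0.606 CPM in HFHC and 7.59 CPM in ND livers, a log2 fold change of -3.66 (SE 0.728, edgeR adjusted p = 0.0464). The groups did not overlap for agr2, a trait that was not counted over all genes in livers. Of all genes tested 1.08% were called in this comparison. Both calls were lost on leaving out 1% ND replicate 3, 4 or 5 or any of the 5 HFHC livers (adjusted p up to 0.122), and with all 30 livers in the fit (0.0564 for clca1 and 0.157 for agr2). DESeq2 gave adjusted p-values of 1.67e-07 and 2.54e-05, and it called 1034 of 22706 genes. The other 4 members were below the filter on low counts. The 2 genes tested passed it mostly through the ND livers, as HFHC livers held 4 to 23 counts of clca1 and 0 to 10 of agr2. The filter itself thus favoured a fall, and the calls are no independent support for one.

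Diet at 0% EtOH had the same direction without a call. HFHC livers averaged 2.94 CPM of clca1 and ND livers 424 CPM (n = 5 each), with a log2 fold change of -7.21 (SE 2.03, edgeR adjusted p = 0.102), and for agr2 the means were 0.988 CPM in HFHC and 16.2 CPM in ND livers, with a log2 fold change of -4.07 (SE 1.22, edgeR adjusted p = 0.116). The count was 0 of 2 members in edgeR, where both had an unadjusted p under 0.05, beside 1.06% of all genes called in edgeR. With DESeq2 it was 2 of 2 (adjusted p = 0.00132 and 0.0315), beside 1476 of 22185 genes called by DESeq2. Over all genes, 18.5% had an unadjusted p under 0.05 in edgeR. Here too agr2 passed the filter mostly through ND livers, with 0 to 37 counts in HFHC livers. Without the liver of 0% ND replicate 3 the log2 fold changes were -5.76 for clca1 and -2.76 for agr2 (edgeR adjusted p = 0.169 and 0.251). Without replicate 4 of 0% ND both were called (0.0383 and 0.0473), and without replicate 5 clca1 was (0.0480).

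EtOH at 1% on ND left both genes uncalled, with log2 fold changes of -0.90 (SE 1.79, edgeR adjusted p = 0.942) for clca1 and -1.12 (SE 0.981, edgeR adjusted p = 0.928) for agr2. There 0 of 2 members were called in edgeR and with DESeq2, 0 had an unadjusted p under 0.05, and 0.0154% of all genes were called. Both directions turned without the liver of 0% ND replicate 3, to 0.51 for clca1 and 0.16 for agr2. EtOH at 1% on HFHC diet, and diet at 0.5% EtOH, left all 6 members below the filter.

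At 0.5% EtOH on ND, agr2 averaged 0.458 CPM, against 16.2 CPM in 0% ND livers (n = 5 each), a log2 fold change of -5.20 (SE 1.27, edgeR adjusted p = 0.165). The other 5 members were below the filter and not tested, among them clca1, at 0.169 CPM against 424 CPM. The share of all genes called in edgeR was 0.0%, with 1676 genes at an unadjusted p under 0.05 and 1041 called by DESeq2, which called agr2. The gene was also called in edgeR without 0% ND replicate 4 (adjusted p = 0.0362) and with all 30 livers in the fit. It passed the filter mostly through the 0% ND livers (5 to 791 counts), with 0 to 17 counts in 0.5% ND livers, so the filter favoured this direction. At 0.5% EtOH on HFHC diet, clca1 averaged 82.8 CPM, against 2.94 CPM in 0% HFHC livers, a log2 fold change of 4.82 (SE 1.90, edgeR adjusted p = 0.379) that rested on replicates 2 and 3 and was 1.87 at the lowest when a liver was left out. Here too 0.0% of all genes were called, with 1403 at an unadjusted p under 0.05 and 138 called by DESeq2, which did not call clca1.

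Beside these values, some genes of the intestinal epithelium varied with clca1 between livers. Over the 30 livers vil1 ranged between 0 and 1184 CPM and the peptide transporter gene slc15a1b between 0 and 677 CPM, and the intestinal factor gene cdx1b was at 0 in 19 livers. With log2(CPM + 0.2), clca1 had an r of 0.98 and a rho of 0.90 with vil1 (r = 0.98 over 28 livers after leaving out 2), and an r of 0.99 and a rho of 0.92 with slc15a1b (0.99 over 28). The r with clca1 was 0.95 for slc5a1, 0.90 for cdx1b, 0.89 for anpepb and 0.88 for fabp2. The other 4 of the 10 enterocyte markers followed it less, with an r of 0.59 for fabp6 (648 CPM in 1% ND replicate 3 and at most 1.44 CPM in any other liver), 0.39 for rbp2a, 0.12 for apoa4b.1 and -0.04 for alpi.1 (0 counts in 27 livers). Outside that list the r was 0.96 with muc13b, 0.85 with agr2 and -0.20 with muc5.1. The points share library and depth, many lie near 0, and the pairs were chosen after values were seen. Together the 10 markers summed to 2393 to 12790 CPM, a sum to which rbp2a (1065 to 3784 CPM) and apoa4b.1 (1150 to 2790 CPM) contributed in every liver.

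Exocrine pancreas markers, by contrast, were well above 0 in all livers and fell with HFHC diet at 0% and 1% EtOH. The sum of 12 such markers was 309 to 1267 CPM in 1% HFHC livers, against 2390 to 27553 CPM in 1% ND livers, where 7 of 12 fell with HFHC diet (1.08% of all genes called). It was 264 to 881 CPM in 0% HFHC livers, against 3124 to 33675 CPM in 0% ND livers, where 11 of 12 fell (1.06% of all genes called). DESeq2 called 11 of 12 in both comparisons. In edgeR, leaving out any 1% HFHC liver left 1 to 3 of all genes called for diet at 1% EtOH. Most of the 7 calls were thus lost. With the replicate block, 0 of all genes were called for diet at 0% EtOH. At 0.5% EtOH the pancreas sum was 355 to 2321 CPM in HFHC livers, against 414 to 5232 CPM in ND livers, with 0 of 12 called by edgeR or DESeq2 and 0 at an unadjusted p under 0.05. Of 7 enterocyte markers tested, 3 fell with HFHC diet at 1% EtOH, and DESeq2, run without the filter on low counts, called 6. Markers such as vil1 (3 to 16 counts in 1% HFHC livers) and slc15a1b (0 to 11) passed that filter mostly through ND livers. For these the filter favoured a fall, and edgeR calls of such markers are no independent support for one. At 0% EtOH 0 of 6 were called in edgeR, with 4 at an unadjusted p under 0.05, and DESeq2 called 7. At 0.5% EtOH 0 of 5 were called in edgeR, with 2 at an unadjusted p under 0.05, and DESeq2 called 3. There the direction was the other way. The median log2 fold change of the enterocyte markers tested was 2.68 at 0.5% EtOH, against -4.30 at 0% and -5.58 at 1% EtOH. Over all genes DESeq2 called 1034 for diet at 1%, 1476 at 0% and 368 at 0.5% EtOH. The sum of 10 skin keratinocyte markers also varied between livers. It was 186 to 2191 CPM in the 7 livers with clca1 above 100 CPM and 890 CPM in 0% HFHC replicate 6, the liver with the highest muc5.2, against 29.7 to 52.1 CPM in the other 4 livers of that group. In 1% HFHC replicate 3, the next highest for muc5.2, it was 190 CPM, beside 179 CPM in replicate 4 of that group, which had 7 counts of muc5.2. In 1% ND replicate 1, also named above for muc5.1 and muc5.2, it was 95.4 CPM, the lowest of its group, which reached 799 CPM. Of the keratinocyte markers tested, 1 of 5 was called for diet at 1% EtOH and 0 of 4 at 0% EtOH in edgeR, where 3 had an unadjusted p under 0.05 and DESeq2 called 2.

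Whether tissue beside the liver entered these samples was not tested, and the part of these markers in the values of clca1 and agr2 was not tested.

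**Figure D5:**
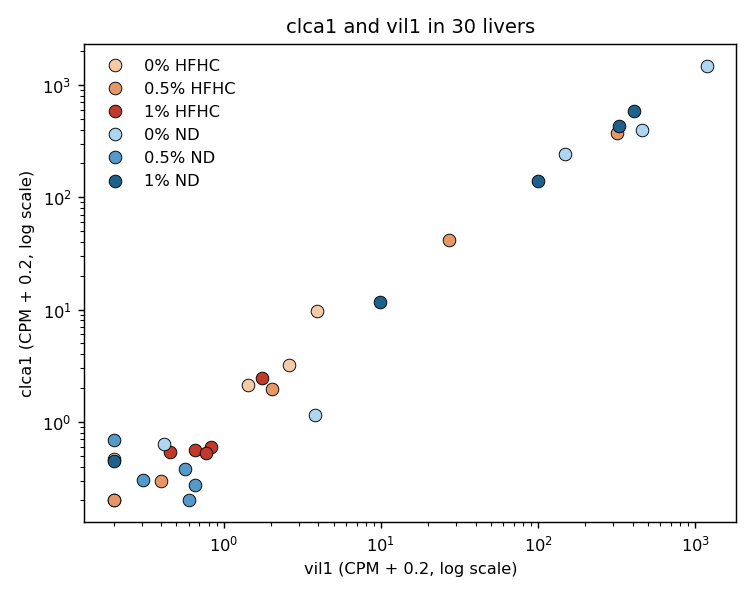
Level of clca1 against that of vil1 in 30 single livers, both as CPM + 0.2 on log axes, coloured by diet and EtOH dose. The points follow a line from livers at or near 0 for both genes to 0% ND replicate 3, with 1481 CPM of clca1 and 1184 CPM of vil1.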

How the data were processed

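RNA of 12 pools of whole larvae and 30 single livers was sequenced as single-end reads of poly(A)-selected mRNA. The authors aligned larval reads to GRCz10 with STAR and deposited raw counts and TPM per gene symbol; the counting program and gene models are not given in the sources used here. For livers, the authors aligned with STAR 2.3, counted exon reads with HTSeq 0.6.0 on Ensembl genes and deposited raw counts in 4 tables. The tables also hold the authors' DESeq2 fold changes and p-values and 40 columns of size-factor counts, none of which were used. Counts of the 10 control livers were the same in both tables holding them.

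Members were matched by symbol, and their identifiers and GRCz10 positions come from the liver tables. Counts were filtered with filterByExpr, scaled by TMM and tested by edgeR 4.0.16 (quasi-likelihood F test, R 4.3.3, limma 3.58.1), all 12 larval libraries in one fit and livers in fits of the 10 livers compared. P-values were adjusted by Benjamini-Hochberg over all genes, threshold 0.05. Scripts were tested on simulated data. Log2 CPM for correlations used a prior count of 2 in larvae, and 0.2 CPM, chosen after values were seen, was added in livers. Alternatives were DESeq2 1.42.0, RLE normalization, no filter, limma on log2(TPM + 1) and log2(TPM + 0.1), other samples in the fit, a replicate block, and each library left out.

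Members and gene lists were chosen with earlier results of these data known. Named are all members, the other mucins, of each other list at most 2 genes called higher and 2 called lower per larval comparison, by smallest p, and the 5 genes most correlated with muc5.3, clca1 and agr2 (mean at least 5 CPM); vil1, anpepb, gcnt4a, clca5.1 and clca5.2 in EAE larvae, itln1 on ND and the liver genes other than members were named after their values were seen. Antisense and overlapping transcripts may share reads.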

Additional observations from a re-analysis of the deposited data

Results flagged for a closer look

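In livers, many groups of 5 held 1 liver far from the other 4, by Dixon's 95% critical value. This was so in 23 of 34 checks of a gene in a group of livers. The usual chance rate of about 1 in 20 holds for continuous values and is no yardstick here, since a group with counts in a single liver passes by construction and the same livers recur across genes. In 0% HFHC replicate 6 these were muc5.3 (0.0919 CPM), muc5.1 (4.87 CPM), muc5.2 (22.6 CPM) and agr2 (3.40 CPM), and in 0% HFHC replicate 4 spdef (0.181 CPM). In 0.5% HFHC replicate 2 they were clca1 (371 CPM), agr2 (17.7 CPM), muc5.2 (0.269 CPM) and spdef (0.179 CPM), and in replicate 3 of that group muc5.3 (0.0831 CPM). In 1% HFHC replicate 3 they were muc5.1 (5.08 CPM), muc5.2 (4.78 CPM) and clca1 (2.25 CPM), and in replicate 1 spdef (0.0820 CPM).

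On ND, 0% EtOH replicate 3 was far from its group for clca1 (1481 CPM). In 0.5% ND they were muc5.1 (0.403 CPM), agr2 (1.71 CPM) and spdef (0.101 CPM) in replicate 2, muc5.3 (0.483 CPM) in replicate 4 and muc5.2 (0.0756 CPM) in replicate 5. In 1% ND they were muc5.1 (1.76 CPM) and muc5.2 (0.753 CPM) in replicate 1 and spdef (0.469 CPM) in replicate 3. Values under 0.5 CPM stand for a few counts.

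In larvae, the log2 difference between the EtOH effect on HFHC diet and that on ND was 2.19 for muc5.3 and -1.10 for muc5.2. All pools of EAE larvae lay on one side of the controls on HFHC diet for both genes. The difference between diets was not tested, since it holds the contrast that chose muc5.3.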

How the results depend on the processing

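Over 69 results, 949 alternative values were computed, of which 838 kept their direction and side of the threshold (or, with no test, stayed within the spread), 74 lost a call, 10 gained one, 23 moved and 4 turned in direction, and 41 results held under all their alternatives. The directions that turned were those of spdef for EtOH on ND (-0.13 to 0.41 when a pool was left out, negative without control ND replicate 2, at -0.08, or EAE ND replicate 1) and, for 1% EtOH on ND in livers, of clca1 (-1.58 to 0.51) and agr2 (-1.39 to 0.16), both above 0 without 0% ND replicate 3. The log2 fold change of muc5.3 for EtOH on HFHC diet, 1.92, was 0.91 with limma on log2(TPM + 1), and its values of -1.91 for diet in control larvae and 2.19 for the interaction were -0.87 and 1.03, where the pseudocount of 1 is large beside its TPM. Members called for diet in livers at 1% EtOH, 2 of 2, were 0 with all 30 livers in one fit and 0 to 2 when a liver was left out. At 0% EtOH, 0 of 2 became 2 with all 30 livers, 2 with DESeq2 and 0 to 2 when a liver was left out. For 0.5% EtOH on ND, 0 of 1 became 1 with all 30 livers, 1 with DESeq2 and 0 to 1 when a liver was left out. The cause of these moves was not tested.

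Replicate numbers gave no sign of a pairing in larvae, where deviations of same-numbered libraries had an r of -0.11 to 0.08. In livers r was -0.56 to 0.57 (median -0.0079), a spread too wide to tell whether same-numbered livers were paired. With the replicate block, members called for diet at 1% EtOH were 0 (adjusted p = 0.0996 for clca1 and 0.184 for agr2), and creb3l1 lost its call for EtOH on HFHC diet in larvae (0.0739). The block changed no other call among members.

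Counts of all genes called depended on the settings. In larvae they were 8 to 131 for EtOH on HFHC diet (46 as reported), 5 to 557 for EtOH on ND (257), 1525 to 2432 for diet in EAE larvae (2421) and 1868 to 3436 for diet in control larvae (3368). In livers they were 1 to 1034 for diet at 1% EtOH (136), 0 to 1580 for diet at 0% EtOH (130), 0 to 40 for 1% EtOH on ND (2), 0 to 1132 for 0.5% EtOH on ND (0) and 0 to 138 for 0.5% EtOH on HFHC diet (0). Counts limit the precision for spdef in larvae (10 to 31 counts per pool, SE of 0.314 to 0.353 on the log2 scale) and leave muc5.3 in livers (at most 5 counts) below the filter.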
